A study of Mus musculus with 12 samples.

Results

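Chemokines are small secreted proteins that draw leukocytes along a gradient, and their receptors are G protein-coupled receptors on the cells that follow it. The genes described here are the 48 mouse genes whose only symbol in the array's annotation starts with Ccl, Cxcl, Ccr, Cxcr or Cx3c followed by a digit or by l1 or r1, out of 18193 genes on the array. They were measured in whole liver, 1 array per mouse, in 12 male C57BL6J mice aged 30 weeks. Control mice drank water without antibiotic, and penicillin mice drank water with 6.7 mg/L penicillin. On each treatment 3 mice stayed on chow, in which fat supplied 13.5% of the calories, and 3 were moved at 17 weeks of age to a high-fat diet with 45% of its calories from fat. Each of the 4 groups is named by its treatment and then its diet, and the number after the name tells its mice apart.

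In the liver, Kupffer cells, endothelium, stellate cells and hepatocytes all release chemokines, and resident and incoming monocytes, neutrophils and lymphocytes carry most of the receptors. Inflammatory ligands such as Cxcl1 and Ccl2 are induced through NF-kB, and Cxcl9, Cxcl10 and Cxcl11 are induced by interferons. Homeostatic ligands such as Cxcl12 are made without such a signal. The comparisons ask whether the high-fat diet, the penicillin or their combination went with other levels of these genes at 30 weeks.

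The promoters of 6 ligands are shown. Ccl9 and Cxcl9 differed between the diets, and Cxcl1 and Cxcl10 stood high together in 1 mouse. Cxcl2 and its close relative Cxcl3 were not detected by the rule given below. The 6 ligands were chosen after the values and the motif matches were seen. Each line holds the 250 bases before the gene's start, 5′ to 3′ on the gene's strand, from RefSeq on GRCm38.p6. Capitals mark an NF-kB motif (GGGANNTTC) or an interferon-stimulated response element, ISRE (GAAANNGAA), found on either strand, with overlapping matches joined.
Ccl9: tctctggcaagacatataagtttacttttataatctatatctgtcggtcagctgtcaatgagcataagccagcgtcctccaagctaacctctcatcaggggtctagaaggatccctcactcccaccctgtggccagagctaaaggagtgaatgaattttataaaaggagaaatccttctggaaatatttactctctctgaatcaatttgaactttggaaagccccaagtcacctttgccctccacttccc
Cxcl1: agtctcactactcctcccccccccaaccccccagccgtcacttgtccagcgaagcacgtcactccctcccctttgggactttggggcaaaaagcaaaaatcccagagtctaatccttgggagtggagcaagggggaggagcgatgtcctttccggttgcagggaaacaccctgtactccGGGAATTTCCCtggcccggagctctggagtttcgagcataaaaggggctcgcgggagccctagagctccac
Cxcl2: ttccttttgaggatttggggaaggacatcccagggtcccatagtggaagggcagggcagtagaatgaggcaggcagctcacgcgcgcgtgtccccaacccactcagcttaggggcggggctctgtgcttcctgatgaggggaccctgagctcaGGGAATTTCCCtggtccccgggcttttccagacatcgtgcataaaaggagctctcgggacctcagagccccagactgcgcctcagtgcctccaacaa
Cxcl3: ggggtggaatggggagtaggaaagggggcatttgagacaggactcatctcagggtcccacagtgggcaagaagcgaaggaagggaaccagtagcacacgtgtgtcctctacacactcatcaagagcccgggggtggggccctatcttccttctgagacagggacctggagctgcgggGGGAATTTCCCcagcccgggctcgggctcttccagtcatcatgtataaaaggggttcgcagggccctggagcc
Cxcl9: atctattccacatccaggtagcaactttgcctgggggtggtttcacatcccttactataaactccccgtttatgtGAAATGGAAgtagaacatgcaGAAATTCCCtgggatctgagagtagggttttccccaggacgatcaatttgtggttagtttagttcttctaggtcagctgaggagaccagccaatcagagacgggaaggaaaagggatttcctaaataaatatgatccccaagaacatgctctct
Cxcl10: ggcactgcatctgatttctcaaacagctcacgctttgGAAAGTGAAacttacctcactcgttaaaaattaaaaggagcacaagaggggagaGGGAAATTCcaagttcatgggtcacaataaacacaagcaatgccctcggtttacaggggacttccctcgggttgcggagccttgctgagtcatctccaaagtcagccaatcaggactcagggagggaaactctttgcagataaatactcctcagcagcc
The Ccl9 window is chr11:83578637-83578886 on the minus strand and holds 0 matches, as do the windows of Ccl27a, whose averaged diet difference also passed under every alternative, and of Ccl6, which was also high in that mouse. The Cxcl1 window is chr5:90890995-90891244 on the plus strand, and its NF-kB motif begins 71 bases before the start. The Cxcl2 window is chr5:90903649-90903898 on the plus strand, and its NF-kB motif begins 97 bases before the start. The Cxcl3 window is chr5:90785851-90786100 on the plus strand, and its NF-kB motif begins 73 bases before the start. The Cxcl9 window is chr5:92328080-92328329 on the minus strand, with an ISRE at 175 bases and an NF-kB motif at 154 bases. The Cxcl10 window is chr5:92348890-92349139 on the minus strand, with an ISRE at 213 bases and an NF-kB motif at 159 bases. Windows were given for 35 of the 48 genes, 39 windows in all, some genes having several starts. An NF-kB motif was in 8 of these 39 windows (20.5%) and in 3.23% of all 32851 windows of the table. An ISRE was in 6 of the 39 (15.4%) against 7.13% of all windows, and a gamma-activated sequence, GAS (TTCNNNGAA), in 4 of the 39 (10.3%) against 7.02%. A match describes the letters and does not show that a factor binds there.

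Of the 48 genes, 31 had values above log2 4.999, the 40th percentile of the whole table, on at least 3 arrays. These were compared between the groups among 13788 genes above that level. The other 17 were not detected: the ligands Ccl3, Ccl7, Ccl11, Ccl12, Ccl22, Cxcl2, Cxcl3 and Cxcl5, and the receptors Ccr1, Ccr1l1, Ccr3, Ccr4, Ccr8, Ccr9, Cxcr4, Cxcr5 and Cxcr6. Several ligands were therefore measured without their receptor. Of 14 ligand and receptor pairs listed, 9 had both partners above the level. The receptors Ccr6 and Cx3cr1 passed on 6 and 4 arrays only, and all of these arrays were from chow mice.

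Values are log2 signals after RMA, so 1 unit is a doubling, and signals of different probe sets are not set against each other. Arrays of 1 group correlated at 0.985 to 0.995 over all genes. A set of 3 arrays, penicillin chow 2 and 3 and penicillin high-fat 2, had an 18S control signal of 11.77 to 11.81, where the other 9 had 12.67 to 13.87. Penicillin chow 1 stood apart for S100a8 and S100a9, calgranulin genes of neutrophils. Its mean centred level of the 4 neutrophil markers tested was 1.48, against -0.49 to 0.43 on the other 11 arrays, while the other 2 markers, Elane and Ngp, were within the range of the other arrays. Of 7 hepatocyte markers, 6 read at least 11.68 on every array, with Alb (albumin) at 14.98 to 15.05, and Ass1 read 6.92 to 8.17.

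The high-fat diet went with more Ccl27a, Cxcl9 and Cxcl16 and with less Ccl9 and Ccr6 when averaged over both treatments. That is 5 of the 31 genes past an adjusted p of 0.05 (limma, Benjamini-Hochberg over 13788 genes), and the share of all genes called was 14.5%. Of the 5, 3 were higher, as were 9.63% of all genes, and 2 were lower, as were 4.85%. The share of these genes called, 16.1%, was thus close to the background. Ccr6 was tested only through its chow arrays, so its call adds no support to this count. The median difference of the 31 genes was -0.01 on the log2 scale, the same as that of all genes. In penicillin mice the diet difference passed for 3 of 31 genes, with 8.32% of all genes called. Of these 3, 2 were higher (6.43% of all genes) and 1 lower (1.89%). In control mice it passed for 0 of 31, with 0.899% of all genes called. At an unadjusted p under 0.05 there were 5 of the 31, against 15.1% of all genes. Whether the diet acted differently in the treatments is tested by the interaction, given further on.

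**Figure D1:**
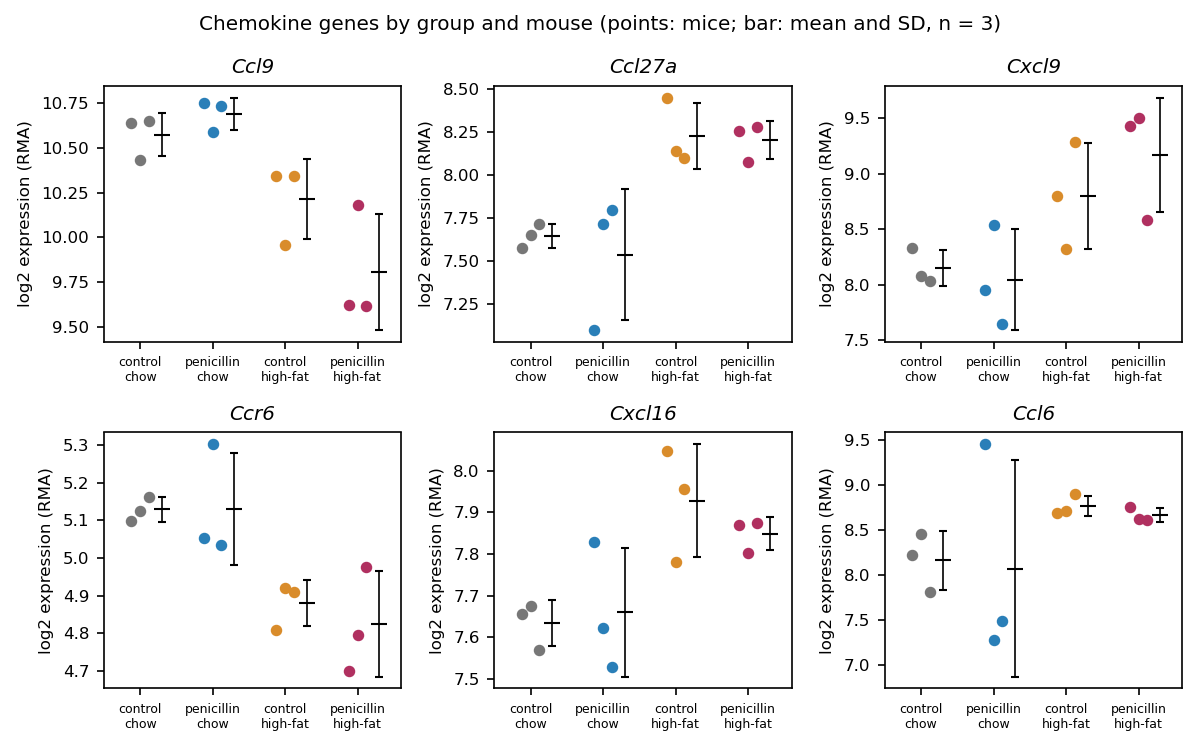
Log2 expression after RMA (vertical axis) of Ccl9, Ccl27a, Cxcl9, Ccr6, Cxcl16 and Ccl6 in the 4 groups (horizontal axis). Points are mice in replicate order and bars are the mean and SD of 3 mice. All 6 high-fat values of Ccl9 lie below all 6 chow values, and all 6 of Ccl27a lie above them, while penicillin chow 1 stands far above the rest of its group for Ccl6.

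Ccl9 is a CC ligand of Ccr1 that draws myeloid cells. Its control chow values were 10.64, 10.44 and 10.65, its penicillin chow values 10.75, 10.59 and 10.73, its control high-fat values 10.34, 9.96 and 10.34, and its penicillin high-fat values 9.62, 10.18 and 9.62. Every high-fat mouse was below every chow mouse. On both treatments the diets did not overlap for 4 of the 31 genes, and for 10.1% of all genes. Among the 4 was Ccr6, tested only through its chow arrays. Averaged over treatments, Ccl9 fell by 0.62 ± 0.11 (SE) on the log2 scale with the high-fat diet, 0.65 times the chow level (adjusted p = 0.00383). The group means were 10.57 ± 0.12 and 10.69 ± 0.09 (SD, n = 3) on chow for control and penicillin, against 10.21 ± 0.22 and 9.81 ± 0.33 on the high-fat diet. In penicillin mice Ccl9 fell by 0.88 ± 0.15 with the diet (adjusted p = 0.00577). In control mice the difference was -0.36 ± 0.15 (adjusted p = 0.295). A second probe set of Ccl9 had diet differences of -0.63 in penicillin mice and -0.17 in control mice, the same direction at a smaller size. Both Ccl9 calls passed under every alternative run, with adjusted p between 0.000964 and 0.0131 for the averaged diet difference and between 0.00144 and 0.0336 in penicillin mice.

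Macrophage genes moved the other way from Ccl9 with the diet. Of 12 Kupffer cell and macrophage markers, which include Adgre1, Clec4f, Vsig4 and Cd68, 11 were called higher on the high-fat diet averaged over treatments, with a median difference of 0.69. Their mean centred level was -0.17 to -0.02 in control chow, -0.85 to -0.23 in penicillin chow, 0.34 to 0.46 in control high-fat and -0.16 to 0.50 in penicillin high-fat. Of the endothelial markers 7 of 8 were called higher and of the stellate cell markers 5 of 8, with medians of 0.38 and 0.33. The share of all genes called higher in this comparison was 9.63%. Among the blood cell lists 0 of 2 monocyte, 0 of 4 neutrophil, 0 of 5 dendritic cell and 0 of 5 B and plasma cell markers were called by limma, where 1, 0, 0 and 2 had an unadjusted p under 0.05. The 2 monocyte markers tested were Plac8 and Fn1, while Chil3 and S100a4 were not detected. Fn1 read 12.60 to 13.00 over the 12 arrays. So short a list cannot show whether monocytes changed. For penicillin on chow, 0 of the 12 Kupffer cell and macrophage markers were called by limma. All 12 were lower, and 10 had an unadjusted p under 0.05, against 7.62% of all genes. Whole liver was measured, so fewer cells of a type and less RNA per cell cannot be told apart. The part of these lists in the differences of the chemokine genes was not tested.

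Ccl27a is a CC ligand of Ccr10 best known from skin, where it draws T cells. It read 7.58, 7.65 and 7.72 in control chow, 7.10, 7.72 and 7.80 in penicillin chow, 8.45, 8.14 and 8.10 in control high-fat, and 8.26, 8.08 and 8.28 in penicillin high-fat. Every high-fat mouse was above every chow mouse. Averaged over treatments Ccl27a rose by 0.62 ± 0.11 on the log2 scale, 1.54-fold (adjusted p = 0.00496). In penicillin mice it rose by 0.67 ± 0.16 (adjusted p = 0.0267), and in control mice the difference was 0.58 ± 0.16 (adjusted p = 0.114). The control difference passed without penicillin chow 1, whose value of 7.10 widened the shared spread, at the same size (adjusted p = 0.0195). The call in penicillin mice was lost without penicillin high-fat 1 (adjusted p = 0.0945) or 3 (0.0814). The mouse genome holds near-identical copies of Ccl27a, and whether the probe set separates them was not tested. Its receptor Ccr10 was near the detection level at 4.98 to 5.48, and its averaged diet difference of 0.08 ± 0.07 did not pass (adjusted p = 0.473).

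Cxcl9 is an interferon-induced CXC ligand that draws T and NK cells through Cxcr3. It read 8.34, 8.08 and 8.04 in control chow, 7.95, 8.54 and 7.65 in penicillin chow, 8.80, 8.33 and 9.28 in control high-fat, and 9.43, 9.50 and 8.58 in penicillin high-fat. The 3 penicillin high-fat mice were above all 6 chow mice, and control high-fat 2 was within the chow range. Averaged over treatments Cxcl9 rose by 0.89 ± 0.21, 1.85-fold (adjusted p = 0.0162), the largest diet difference among the 31 genes. In penicillin mice it rose by 1.12 ± 0.29, 2.18-fold (adjusted p = 0.0367), and in control mice the difference was 0.65 ± 0.29 (adjusted p = 0.324). The second probe set gave 0.66 averaged over treatments. The call in penicillin mice held in 5 of 12 fits with 1 mouse left out. It was lost without penicillin high-fat 1 or 2, penicillin chow 1 or 3, control chow 1 or 2, or control high-fat 1, with adjusted p between 0.0504 and 0.135. It was also lost with the replicate number as a block (adjusted p = 0.0564). With only the penicillin mice in the fit, neither Cxcl9 (adjusted p = 0.0928) nor Ccl27a (adjusted p = 0.101) passed.

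The partners of Cxcl9 were not called with the diet. Cxcr3 lay between 6.18 and 6.57 on all arrays, with an averaged diet difference of 0.02 ± 0.07 (adjusted p = 0.89) and group means of 6.31 ± 0.14 to 6.46 ± 0.17 (SD, n = 3). Cxcl11, induced by the same interferons, had means of 6.98 ± 0.15 and 6.81 ± 0.16 on chow for control and penicillin, and 6.97 ± 0.02 and 6.70 ± 0.27 on the high-fat diet. Its averaged diet difference was -0.06 ± 0.09 (adjusted p = 0.723). Of the T cell markers 0 of 5 and of the NK cell markers 0 of 5 were called with the diet by limma, and 0 of either had an unadjusted p under 0.05. Their median differences were -0.05 and 0.004. Among these markers Cd3g, Gzma, Gzmb and Ncr1 read below the detection level on some arrays, and Cd3g was tested only through high-fat arrays. These counts therefore cannot show that T and NK cells were unchanged. Ifng, which encodes interferon gamma, was not detected, at 3.15 to 3.68.

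Cxcl16 is a membrane-bound ligand that also takes up oxidised lipoprotein. It read 7.66, 7.67 and 7.57 in control chow, 7.83, 7.62 and 7.53 in penicillin chow, 8.05, 7.78 and 7.96 in control high-fat, and 7.87, 7.80 and 7.87 in penicillin high-fat. The ranges of the diets touched, since penicillin chow 1 was above 2 of the high-fat mice. Averaged over treatments Cxcl16 rose by 0.24 ± 0.07, 1.18-fold (adjusted p = 0.0294). The second probe set gave 0.30 averaged over treatments, with 0.40 in penicillin mice and 0.19 in control mice. In penicillin mice Cxcl16 passed limma with the probe set of highest variance (adjusted p = 0.0187), but not with the one used (adjusted p = 0.232). The averaged call held in only 4 of 12 fits with 1 mouse left out. The 8 mice without which it was lost were 1 and 3 of control chow, of control high-fat and of penicillin high-fat, and 2 and 3 of penicillin chow, with adjusted p between 0.0537 and 0.0711. Its receptor Cxcr6 was not detected.

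Ccr6, the receptor of Ccl20, read 5.10, 5.12 and 5.16 in control chow, 5.05, 5.30 and 5.04 in penicillin chow, 4.81, 4.92 and 4.91 in control high-fat, and 4.70, 4.80 and 4.98 in penicillin high-fat. It fell by 0.28 ± 0.07 with the diet averaged over treatments (adjusted p = 0.0162). All of its high-fat values lay below the detection level, and the gene was tested only through its chow values, so its call adds no support to the count. Its ligand Ccl20 lay between 5.08 and 5.40, with an averaged diet difference of -0.11 ± 0.06 (adjusted p = 0.258).

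Removing the 3 arrays of low 18S signal, which leaves penicillin chow 1 alone in its group with the spread assumed from the others, took 3 of the diet calls away. Without them the averaged diet difference of Cxcl9 was 0.85 (adjusted p = 0.0514), that of Cxcl16 was 0.17 (adjusted p = 0.175), and that of Ccr6 was -0.23 (adjusted p = 0.0828). Ccl9 and Ccl27a stayed past the threshold, and Cxcl1 was called as well.

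**Figure D2:**
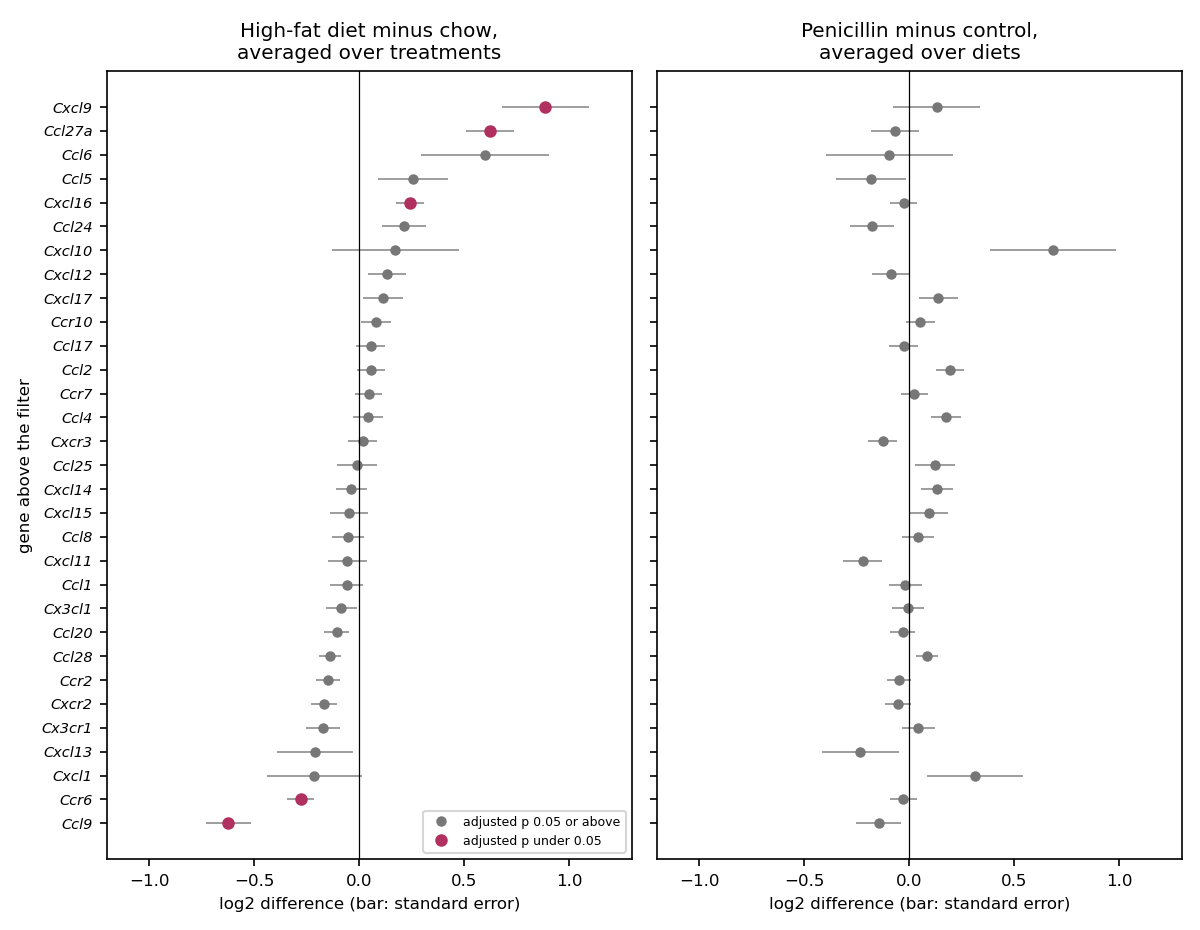
Log2 differences of the 31 genes above the detection level (horizontal axis), with the high-fat diet minus chow on the left and penicillin minus control on the right, each averaged over the other factor. Points are limma estimates, bars are 1 standard error, and magenta marks an adjusted p under 0.05. Ccl9, Ccr6, Cxcl16, Ccl27a and Cxcl9 are marked on the left, and 0 genes on the right.

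Ccl6 is a myeloid CC ligand of Ccr1 found in mice. It read 8.22, 8.46 and 7.81 in control chow, 9.46, 7.28 and 7.49 in penicillin chow, 8.69, 8.72 and 8.90 in control high-fat, and 8.76, 8.63 and 8.62 in penicillin high-fat. The 6 high-fat mice were within 8.62 to 8.90, above 5 of the 6 chow mice, and penicillin chow 1 was above the other 11. The averaged diet difference was 0.60 ± 0.30 and did not pass (adjusted p = 0.208). Without penicillin chow 1 it was 0.95 ± 0.11 (adjusted p = 0.000431), and in penicillin mice it was 1.29 ± 0.16 (adjusted p = 0.00116). Without that mouse 7 of the genes were called with the diet, Ccl24 and Ccl6 being added to the 5, and 15.1% of all genes were called in that fit. In control mice the diet difference of Ccl6 was 0.60 ± 0.43 (adjusted p = 0.545), above 0 under every alternative. Without the 3 arrays of low 18S signal, penicillin chow 1 alone stood for its group. The averaged difference of Ccl6 was then -0.08, so the direction of the averaged difference depends on which penicillin chow mice are kept.

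The receptors of inflammatory cells had small diet differences that did not pass. Cxcr2, the neutrophil receptor of Cxcl1, had an averaged diet difference of -0.17 ± 0.06 (adjusted p = 0.092). It was near the detection level at 4.97 to 5.39. Ccr2, the monocyte receptor of Ccl2, had -0.15 ± 0.06 (adjusted p = 0.101), and the 3 penicillin high-fat mice at 6.23, 6.30 and 6.40 were below all chow mice. Its other 3 probe sets, which read lower, had differences of 0.12 to 0.34 in penicillin mice, where the one used had -0.22. Cx3cr1, the fractalkine receptor of patrolling monocytes, had -0.17 ± 0.08 (adjusted p = 0.172), but it was tested only through 4 chow arrays and all its high-fat values lay below the detection level. Its ligand Cx3cl1 lay between 6.58 and 7.06.

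The other homing and homeostatic ligands were not called with the diet. Cxcl12, which holds cells in marrow and tissue through Cxcr4, read 10.99 ± 0.13 in control chow, 11.02 ± 0.08 in penicillin chow, 11.24 ± 0.22 in control high-fat and 11.03 ± 0.21 in penicillin high-fat (SD, n = 3). The mucosal ligand Ccl28, named here after its values were seen, had an averaged diet difference of -0.14 ± 0.05 (adjusted p = 0.0961). Cxcl13, the B cell ligand of Cxcr5, varied between mice of a group by an SD of 0.37, and read 7.88 in control chow 3 and 6.49 in penicillin high-fat 3. Ccl17, Ccl24, Ccl25, Ccl1 and Ccl8, ligands of T cells, eosinophils and monocytes, were not called in any of the 7 comparisons.

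Penicillin changed 0 of the 31 genes on chow, 0 on the high-fat diet and 0 averaged over diets by limma at an adjusted p under 0.05. The shares of all genes called were 0.00725%, 0.341% and 0.145%. At an unadjusted p under 0.05 there were 1, 2 and 4 of the 31 genes, where 7.62%, 10.1% and 11.9% of all genes had such a p. The median differences of the 31 genes were 0.03, -0.05 and -0.02.

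Ccl2, the main monocyte ligand of Ccr2, had the smallest p of the averaged penicillin comparison. It read 5.62, 5.54 and 5.56 in control chow and 5.89, 5.64 and 5.68 in penicillin chow. On the high-fat diet it read 5.63, 5.51 and 5.65 in control mice and 6.01, 5.74 and 5.72 in penicillin mice. On both diets the lowest penicillin mouse was above the highest control mouse, as was the case for no other of the 31 genes. Such a separation on both diets was seen for 1.73% of all genes. The averaged difference was 0.19 ± 0.07, 1.14-fold (unadjusted p = 0.0138), and it did not pass over all genes (adjusted p = 0.283, between 0.0958 and 0.47 over the alternatives).

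**Figure D3:**
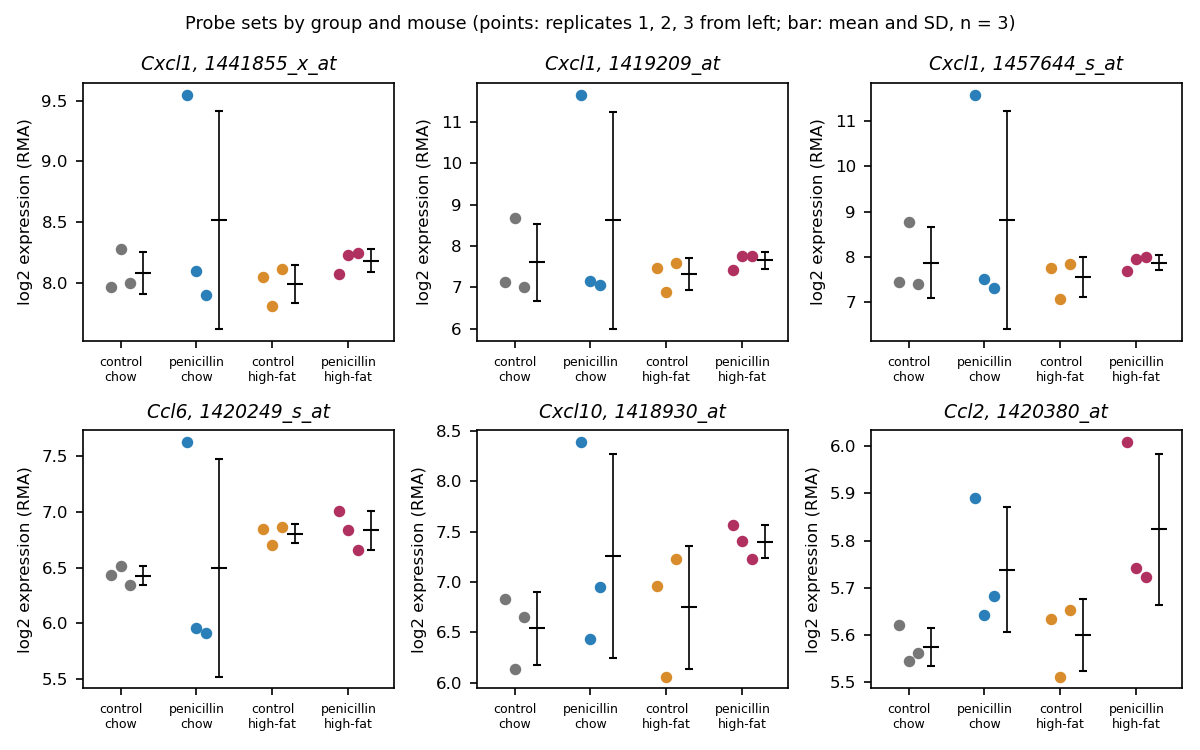
Log2 expression after RMA (vertical axis) in the 4 groups (horizontal axis) for the 3 probe sets of Cxcl1, the second probe set of Ccl6, and the probe sets of Cxcl10 and Ccl2. Points are mice and bars are the mean and SD of 3 mice. Penicillin chow 1 is the highest mouse in the 5 panels of Cxcl1, Ccl6 and Cxcl10, and for Ccl2 the penicillin mice lie above the control mice on each diet.

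Ccl4, a ligand made by activated macrophages and lymphocytes, read 6.48, 6.76 and 6.90 in control chow and 7.03, 7.03 and 7.02 in penicillin chow. The difference on chow was 0.31 ± 0.10 (adjusted p = 0.53). On the high-fat diet the groups overlapped, with a difference of 0.04. Ccl5, a ligand that draws T cells, was lower in the penicillin mice on chow, with 7.14, 7.22 and 6.92 in control mice and 6.58, 6.76 and 6.64 in penicillin mice, a difference of -0.44 ± 0.23 (adjusted p = 0.704). Neither was called, and groups that do not overlap were seen for 11.8% of all genes in this comparison. The third smallest p on chow was that of Cxcl14, a ligand of many epithelia, at 0.19 ± 0.11 (adjusted p = 0.712).

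On the high-fat diet the smallest p was that of Ccl9, at -0.41 ± 0.15 (unadjusted p = 0.0214, adjusted p = 0.378). The penicillin high-fat values of 9.62, 10.18 and 9.62 overlapped those of control high-fat at 10.34, 9.96 and 10.34. Cxcl11 was -0.27 ± 0.13 (adjusted p = 0.537), with 6.57, 7.02 and 6.52 in penicillin high-fat against 6.99, 6.96 and 6.97 in control high-fat. The second probe set of Cxcl11 lay below the detection level on every array, with a difference of -0.025. Cxcl10, the related interferon-induced ligand, named here after its values were seen, was 0.65 ± 0.43 (adjusted p = 0.667). Its penicillin high-fat values of 7.56, 7.40 and 7.23 were above the control high-fat values of 6.96, 6.06 and 7.22. Such a separation on the high-fat diet was seen for 17.3% of all genes. The 3 ligands of Cxcr3 thus had penicillin differences of both signs, and 0 of them passed.

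The interaction asks whether the penicillin difference depended on the diet. It passed for 0 of the 31 genes, with 0.0435% of all genes called, and 1 of the 31 had an unadjusted p under 0.05, against 6.11% of all genes. That gene was Ccl9, at -0.52 ± 0.22 (unadjusted p = 0.033, adjusted p = 0.775). Penicillin went with a Ccl9 difference of 0.12 on chow and -0.41 on the high-fat diet. The next were Ccl4 at -0.27 ± 0.14 (adjusted p = 0.853) and Ccl17 at 0.24 ± 0.14 (adjusted p = 0.866). A larger diet difference of Ccl9, Ccl27a or Cxcl9 in penicillin mice than in control mice was therefore not shown.

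**Figure D4:**
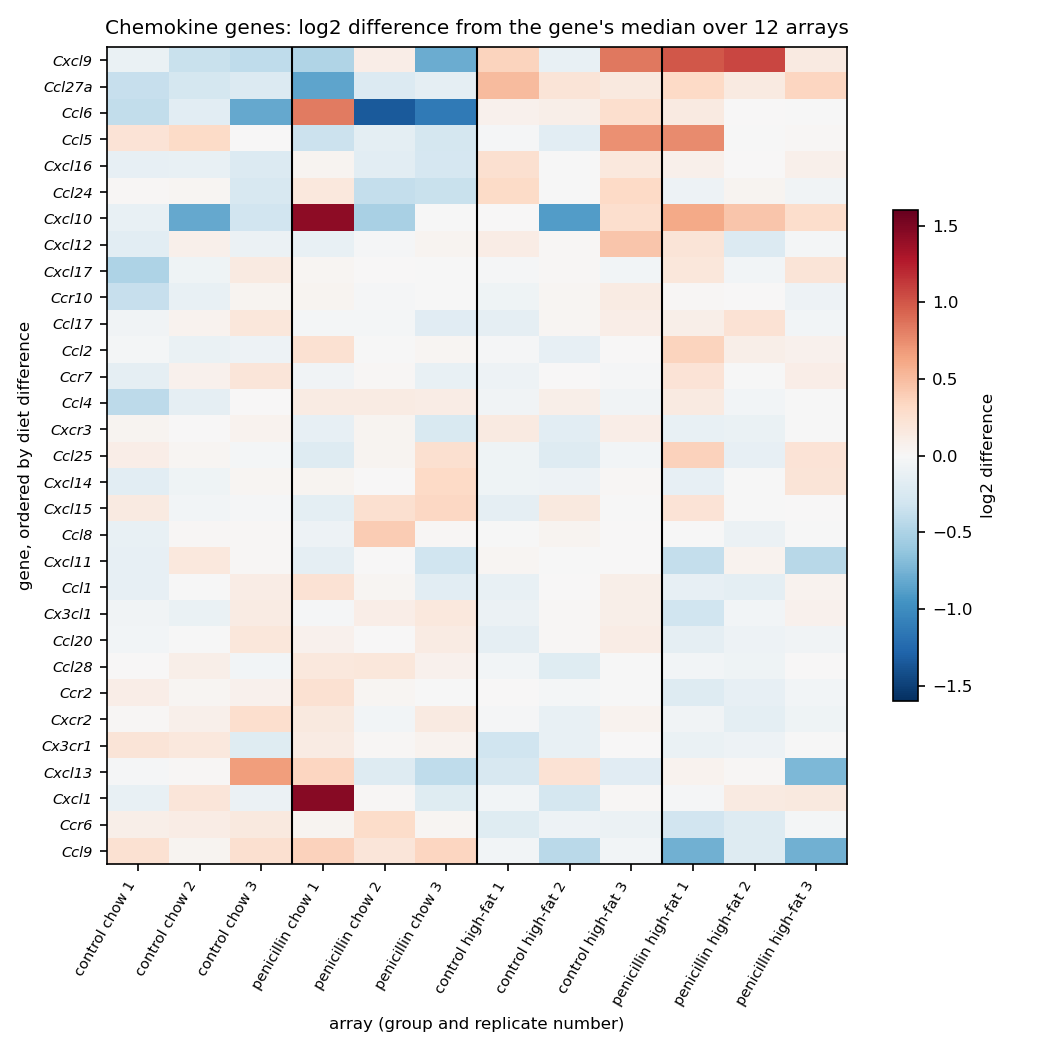
Log2 difference of each of the 31 genes (rows, ordered by the averaged diet difference) from its own median over the 12 arrays (columns, by group and replicate number). Red is above and blue below the gene's median. Penicillin chow 1 has the strongest red cells, for Cxcl1 and Cxcl10, and Ccl9 at the bottom turns blue in the penicillin high-fat mice.

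Penicillin chow 1 differed from the other 11 mice for a set of inflammatory ligands. Cxcl1, the main neutrophil ligand of the mouse, read 9.55 there, against 7.81 to 8.28 on the other 11 arrays. The 2 other probe sets of Cxcl1 read 11.66 and 11.58 in this mouse. The first of them was at 6.88 to 8.67 elsewhere. On both, control chow 2 was the highest of the other 11 arrays, at 8.67 and 8.78. Cxcl10 read 8.39, against 6.06 to 7.56, and Ccl6 9.46, against 7.28 to 8.90. Cxcl2, a second neutrophil ligand that was not detected by the rule, read 4.95 there and 3.38 to 3.88 elsewhere. Cxcl3, also not detected, read 3.20, within the 2.91 to 3.32 of the other arrays, and such values cannot show whether it rose. S100a8 and S100a9 in penicillin chow 1 were at 9.14 and 9.29, against at most 6.82 and 7.45 elsewhere, both in control chow 2. Elane, Ngp and Camp in penicillin chow 1, at 5.12, 5.20 and 4.70, were within the range of the other arrays. Cd14, a receptor for endotoxin, read 7.94, against 5.74 to 6.52 on the other 5 chow arrays and 7.09 to 7.68 on the high-fat arrays. The Cxcl1, Cxcl2 and Cxcl3 promoters printed above share the stretch in capitals letter for letter, and Ccl6 has no match. The part of these markers in the levels of the ligands was not tested.

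This mouse set much of the spread of its group. The pooled SD within groups was 0.47 for Cxcl1 with it and 0.14 without it, 0.63 and 0.20 for Ccl6, and 0.62 and 0.41 for Cxcl10. The median over the 31 genes was 0.14, against 0.13 over all genes. Without the mouse the penicillin difference on chow was -0.08 for Cxcl1 in place of 0.44, and 0.15 for Cxcl10 in place of 0.72. Neither passed in either fit. With the 3 arrays of low 18S signal left out, this mouse alone stood for penicillin chow, and Cxcl1 at 1.47 (adjusted p = 0.00657) and Ccl6 at 1.295 (adjusted p = 0.0255) passed on chow.

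Genes that work with the chemokines were read from lists chosen by role, and their counts stand beside the 9.63% of all genes called higher and the 4.85% called lower with the diet. Of 8 chemokines and receptors named otherwise, 2 were called with the diet averaged over treatments, both higher. These were Ackr2, a receptor that removes inflammatory CC ligands, at 0.31 ± 0.08 (adjusted p = 0.0197), and Rarres2, the attractant chemerin, at 0.20 ± 0.05 (adjusted p = 0.0228). Of 22 genes of receptor signalling 6 were higher and 0 lower: Arrb1, Gnb1, Rac2, Rgs1, Rgs2 and Rgs16. Rgs16, a brake on G protein signalling that hepatocytes also express, rose by 2.70 ± 0.29 (adjusted p = 0.000362), from 7.88 to 10.11 on chow to 10.98 to 12.17 on the high-fat diet. It was the 1 gene of that list also called in control mice, at 2.29 ± 0.41 (adjusted p = 0.0309). Of 9 enzymes and matrix genes that trim or hold chemokines 0 were called by limma, and 0 had an unadjusted p under 0.05. Of 12 inducers 1 was called, Rela, the NF-kB subunit p65, which fell by 0.24 ± 0.05 (adjusted p = 0.00818). Of the 12, 2 had an unadjusted p under 0.05. Cd14 had the largest rise of this list, 0.97, and was not called. Its high-fat values of 7.09 to 7.68 lay above all chow values except that of penicillin chow 1. Tnf and Nfkbia were not called, with differences of -0.07 and 0.04. Penicillin changed 0 of the 51 genes of these 4 lists by limma on chow, on the high-fat diet or averaged over diets, where 6, 3 and 4 had an unadjusted p under 0.05.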

How the data were processed

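Liver RNA of 12 mice was measured on 1 Affymetrix array each, in 4 groups of 3 that the labels call biological replicates; the p-values rest on how these mice differ within groups. The authors deposited log2 values for 45101 probe sets, made by RMA in affy per the submitters' processing notes, with no version given in the sources used. RMA equalises the distributions of the arrays, so differences are relative to the bulk of genes. Symbols came from GEO's platform annotation: 34945 probe sets had 1 symbol, 932 several, 9160 none and 64 were controls. All 48 chemokine symbols were found in the GRCm38.p6 gene table and 0 changed. The 48 genes had 76 probe sets, 18 genes having several, and the one with the highest mean was used. Genes above the 40th percentile (log2 4.999) on at least 3 arrays were fitted in limma 3.58.1 (R 4.3.3) with 4 group means and 8 residual degrees of freedom, eBayes, two-sided tests and Benjamini-Hochberg adjustment over 13788 genes, called at an adjusted p under 0.05. The fit was tested on simulated data. The averaged comparisons weight both strata equally. Array data give no depth, and the number of arrays limits precision (median standard error 0.10 between groups). No batch information was used here. The main fit did not pair mice by replicate number. Deviations of same-numbered mice correlated at -0.23 to 0.17, and those of mice with different numbers at -0.22 to 0.34. These overlapping ranges do not settle whether the numbers pair mice.

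Named genes are those past the threshold, the 3 with the smallest p per comparison, the 6 with the highest mean signals, genes with 1 array apart by over 1 unit, and receptor or ligand partners; exceptions are stated. The members, lists and rules were chosen with earlier results of these data known. Alternatives covered the probe set rule, the filter, normalization, variance model, array weights, replicate block, groups in the fit, and omission of single arrays or of the 3 arrays of low 18S signal.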

Additional observations from a re-analysis of the deposited data

Results flagged for a closer look

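Probe sets that the comparisons did not use gave signals above the control chow mice for 3 genes. The second probe set of Ccl6 read 7.62 in penicillin chow 1, against 6.34 to 6.51 in control chow. The 2 unused probe sets of Cxcl1 read 11.66 and 11.58 in the same mouse, against 7.01 to 8.67 and 7.39 to 8.78 in control chow. The second probe set of Cxcl9 read 6.98 in penicillin high-fat 2, against 5.57 to 5.69 in control chow.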

How the results depend on the processing

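Of the 7 counts of chemokine genes called, those for penicillin on the high-fat diet and for the interaction were 0 under every alternative run, and the other 5 moved by over 1.5 times under at least 1. The count for the averaged diet difference was 5, with 4 to 7 when 1 mouse was left out and 3 without the 3 arrays of low 18S signal (Ccl27a, Ccl9 and Cxcl1). In control mice it went from 0 to 1 (Ccl27a) with array weights, without those 3 arrays, and, over single omissions, ranged from 0 to 1. In penicillin mice it went from 3 to 1 with only the groups compared, ranged from 1 to 3 over single omissions (1 without penicillin high-fat 1), and was 2 with the replicate block, which left the averaged count at 5. Without the 3 low 18S arrays 2 genes were called for penicillin on chow (Ccl6 and Cxcl1) and 2 averaged over diets (Cxcl1 and Cxcl10). The median difference of the chemokine genes moved by more than the spread between replicates in some fits. For the averaged diet it was 0.0437 with the probe set of highest variance, 0.0464 with the mean of all probe sets and 0.0422 with the filter at the 60th percentile. For the diet in penicillin mice those 3 settings gave 0.0146, 0.00710 and 0.0344, no filter 0.00602, array weights -0.00172, and single omissions -0.0719 (also with all arrays) to 0.000788. Single omissions gave -0.0326 to 0.0318 for penicillin averaged over diets and -0.105 to -0.0118 for the interaction, where array weights gave -0.0245. For penicillin on chow it was 0.0725 without the low 18S arrays. Without those arrays the diet difference of Ccl6 turned to -0.0819 averaged and -0.769 in penicillin mice, and its penicillin difference on chow to 1.295. Single omissions gave -0.783 to 0.309 for that last value (above 0 without control chow 2 or penicillin chow 2 or 3), -0.0801 to 0.745 for Cxcl1 on chow and -0.0172 to 0.0905 for Ccl4 on the high-fat diet. Counts over all genes that moved by over 1.5 times ranged, over all fits, from 21 to 571 for the diet in control mice (124), 482 to 1628 in penicillin mice (1147), 0 to 257 for penicillin on chow (1), 21 to 183 on the high-fat diet (47), 2 to 417 averaged (20) and 0 to 24 for the interaction (6). The cause was not tested.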

Other observations

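Ccl5, a ligand of T cells and NK cells, was highest in 2 high-fat mice of different treatments, at 7.65 in control high-fat 3 and 7.67 in penicillin high-fat 1, against 6.58 to 7.22 in the other 10 mice. Its diet difference in penicillin mice was 0.51 ± 0.23 and did not pass limma's test over all genes (adjusted p = 0.203). In the same 2 mice Cxcl9 read 9.28 and 9.43. The mouse with the highest Cxcl9, penicillin high-fat 2 at 9.50, had Ccl5 at 6.91. The mean centred level of the 5 T cell markers tested was 0.10 and -0.03 in the 2 mice with high Ccl5, within the -0.11 to 0.18 of the other 10. Of these markers Cd3d at 6.09 and Cd3g at 5.10 were highest of all 12 mice in control high-fat 3. Cd3e at 6.455, Cd4 at 6.11 and Cd8a at 6.15 in this mouse were within the range of the other mice. Cd3g was above the detection level in high-fat mice only.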
